A study of Mus musculus with 12 samples.

Results

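The NMDA receptor subunit genes were examined in whole cortex and whole cerebellum of SCA1 KI mice and their wild-type (WT) littermates. The members were taken by gene symbol: Grin1, Grin2a, Grin2b, Grin2c, Grin2d and Grin3a, which are 6 of the 15757 gene symbols in the deposited table. All 6 passed the filter on low values. SCA1 KI mice model spinocerebellar ataxia type 1, a neurodegenerative disease caused by a lengthened glutamine tract in ataxin-1. They carry an expanded Atxn1 allele coding for 154 glutamines beside an allele coding for 2 (Atxn1 154Q/2Q), knocked in at the gene's own locus, so that the mutant protein is not limited to 1 cell type. All mice were on a pure C57BL/6J background and were 12 weeks old, and no agent was given. Poly-adenylated RNA was sequenced from 3 libraries of WT cortex, 3 of SCA1 KI cortex, 3 of WT cerebellum and 3 of SCA1 KI cerebellum, 12 in all. By the labels the mice were male, while the study's methods combine both sexes.

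NMDA receptors are cation channels of the glutamate receptor family at excitatory synapses. The form with GluN1 and GluN2 subunits opens only with glutamate and a co-agonist, glycine or D-serine, bound, and depolarization favours its current. The calcium that this form admits starts synaptic plasticity. Every receptor holds GluN1, the glycine-binding subunit made from Grin1, together with GluN2 subunits, which bind glutamate and set the channel's kinetics, or GluN3 subunits, which bind glycine and lower calcium entry. In the forebrain the GluN2B subunit is prominent early in life and GluN2A rises as circuits mature, whereas mature cerebellar granule cells rely on GluN2A and GluN2C. GluN2D is found mostly in interneurons and in the developing brainstem and midbrain.

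Values are normalized counts, that is reads on a gene after division by the size factor that DESeq2 gave each library. Reads on genes numbered 29517504 to 51305080 per library, and the lowest count behind any value of a member was 363 reads. Log2 fold changes (LFC) and their standard errors come from limma on log2(normalized count + 1), with Benjamini-Hochberg adjusted p over 15367 tested genes. Genes were called where the adjusted p was under 0.05 and the LFC exceeded 0.25 in either direction. Libraries are named by the letter or number of their column: B, C and D (WT) and A, E and F (SCA1 KI) in the cortex, and 2, 4 and 6 (WT) and 1, 3 and 5 (SCA1 KI) in the cerebellum. WT cerebellum library 2, SCA1 KI cortex library A and WT cortex library B stood apart from the rest of their groups. The main results that rest on them are given with and without them. Library B held the highest WT cortex value of every subunit. Its oligodendrocyte markers summed to 140532 normalized counts (89072 in C and 82812 in D) and its striatum markers to 19203 (9431 and 11589). The part of this composition in the subunit values was not tested. Atxn1 itself was not called in the cortex (LFC -0.31, limma adjusted p = 0.132) or in the cerebellum (LFC 0.08, adjusted p = 0.837), and reads of the expanded allele were not separated from those of the other. In whole tissue, fewer cells of a type and less RNA per cell cannot be told apart.

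On GRCm38 (GENCODE vM21) all 6 genes lie on the minus strand. Grin1 spans chr2:25291181-25319187, Grin2a chr16:9567898-9995560 and Grin2b chr6:135713233-136173511. Grin2c spans chr11:115249169-115267243, Grin2d chr7:45831883-45878378 and Grin3a chr4:49661611-49845744. Exons of Grin1, Grin2b, Grin2c and Grin2d overlap those of annotated genes on the other strand, such as Grin1os at Grin1. Whether the counting used strand is not given in the sources used here, so reads of these partners may be included, and Grin2a and Grin3a have no such overlap.

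Promoter sequences from RefSeq (GRCm38.p6) were matched for 3 of the 6 members. They are shown for Grin1 and Grin2c, which were both called lower in SCA1 KI cortex and differed between the WT regions in opposite directions. Each run is the 250 bases before the RefSeq start site, 5′ to 3′ on the gene's strand, and capitals mark GC boxes, spelled GGGCGG and searched on both strands.
Grin1, chr2:25319188-25319437, minus strand: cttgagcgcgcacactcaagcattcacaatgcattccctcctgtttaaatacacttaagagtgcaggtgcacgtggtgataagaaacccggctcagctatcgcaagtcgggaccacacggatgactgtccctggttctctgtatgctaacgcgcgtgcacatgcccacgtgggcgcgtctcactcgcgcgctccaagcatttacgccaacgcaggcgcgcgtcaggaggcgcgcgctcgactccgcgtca
Grin2c, chr11:115267244-115267493, minus strand: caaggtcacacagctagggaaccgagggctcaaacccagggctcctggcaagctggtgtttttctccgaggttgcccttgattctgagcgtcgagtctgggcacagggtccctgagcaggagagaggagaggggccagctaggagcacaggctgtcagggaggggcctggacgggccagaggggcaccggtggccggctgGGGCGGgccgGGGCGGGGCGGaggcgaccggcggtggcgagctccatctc
The Grin2c window held 3 GC boxes, with the first at position -50 and the last at position -35 from the start site and the last pair overlapping, whereas the Grin1 window held none. GC content was 58.8% in the Grin1 window and 68.8% in the Grin2c window. Of 32851 RefSeq promoter windows of the same length, 32.7% held a GC box, and the motifs were chosen after the sequences had been seen. Sites read by Capicua, the repressor that binds ataxin-1, were searched as TGAATGAA (in 1.08% of windows) and TGAATGGA (1.01%), and the cyclic AMP response element as TGACGTCA (1.55%), and none of these lay in the windows of Grin1, Grin2c or Grin2d. The RefSeq window of Grin2d lies within the GENCODE span of the gene, downstream of its first annotated start.

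The WT libraries first show which subunits each region transcribes. Grin2b and Grin2a were higher in the cortex, Grin2c was higher in the cerebellum, and Grin1 was abundant in both. Grin2b ranged from 5705 to 7956 normalized counts in WT cortex and from 443 to 676 in WT cerebellum, 12.5-fold higher in the cortex (LFC 3.65 ± 0.18 SE, limma adjusted p = 2.22e-09). Grin2a was 2.56-fold higher in the cortex (LFC 1.35 ± 0.12, limma adjusted p = 4.99e-07) and Grin1 1.75-fold higher (LFC 0.81 ± 0.065, adjusted p = 2.00e-07). Grin2c was 4.38-fold higher in the cerebellum (LFC of cortex against cerebellum -2.11 ± 0.15, limma adjusted p = 7.39e-08). The groups of these 4 genes did not overlap between regions. Grin2d (LFC -0.18, limma adjusted p = 0.222) and Grin3a (LFC -0.01, adjusted p = 0.976) did not pass the test and their groups overlapped. Thus 4 of the 6 members were called, where 61.7% of all tested genes were. The cerebellum libraries came from an earlier data set, so region and data set cannot be told apart.

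Levels of different subunits were compared only per kb of transcript, on the length of the longest annotated transcript. In WT cortex Grin1 stood highest at 4888 ± 395 normalized counts per kb (SD, n = 3), followed by Grin2c at 471 ± 20.8, Grin2b at 279 ± 47.6, Grin3a at 252 ± 21.9, Grin2a at 126 ± 14.5 and Grin2d at 89.5 ± 2.58. Only the neighbours Grin2b and Grin3a overlapped in their libraries. Dividing by coding length instead moved Grin2b, which has by far the longest transcript, to 1509 per kb and above Grin2c at 620 per kb, so the leading GluN2 gene of the cortex depended on the length used. In WT cerebellum Grin1 stood at 2789 ± 153 per kb of longest transcript and Grin2c at 2061 ± 423, with Grin3a at 256 ± 52.3, Grin2d at 102 ± 18.2, Grin2a at 49.1 ± 2.48 and Grin2b at 22.4 ± 5.06, and none of these neighbours overlapped. Per coding length Grin1, Grin2c and Grin3a kept this order, and the mean of Grin2a (164 per kb) came before that of Grin2d (140 per kb). The libraries of these last genes overlapped, at 159 to 173 per kb for Grin2a and 113 to 163 for Grin2d.

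In the cortex, SCA1 KI libraries held less RNA of 4 of the 6 subunits than WT libraries. Grin2a showed the largest difference, and Grin1, Grin2b and Grin2c were lower by smaller amounts. Grin2d and Grin3a were not called. All called members were lower, 4 of 6 against 10.8% of all tested genes called lower and 15.6% called in either direction. The median LFC of the 6 members was -0.43, and that of all tested genes -0.0028. In 5 of the 6 members the WT and SCA1 KI libraries did not overlap, where 30.9% of all tested genes showed no overlap.

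**Figure D1:**
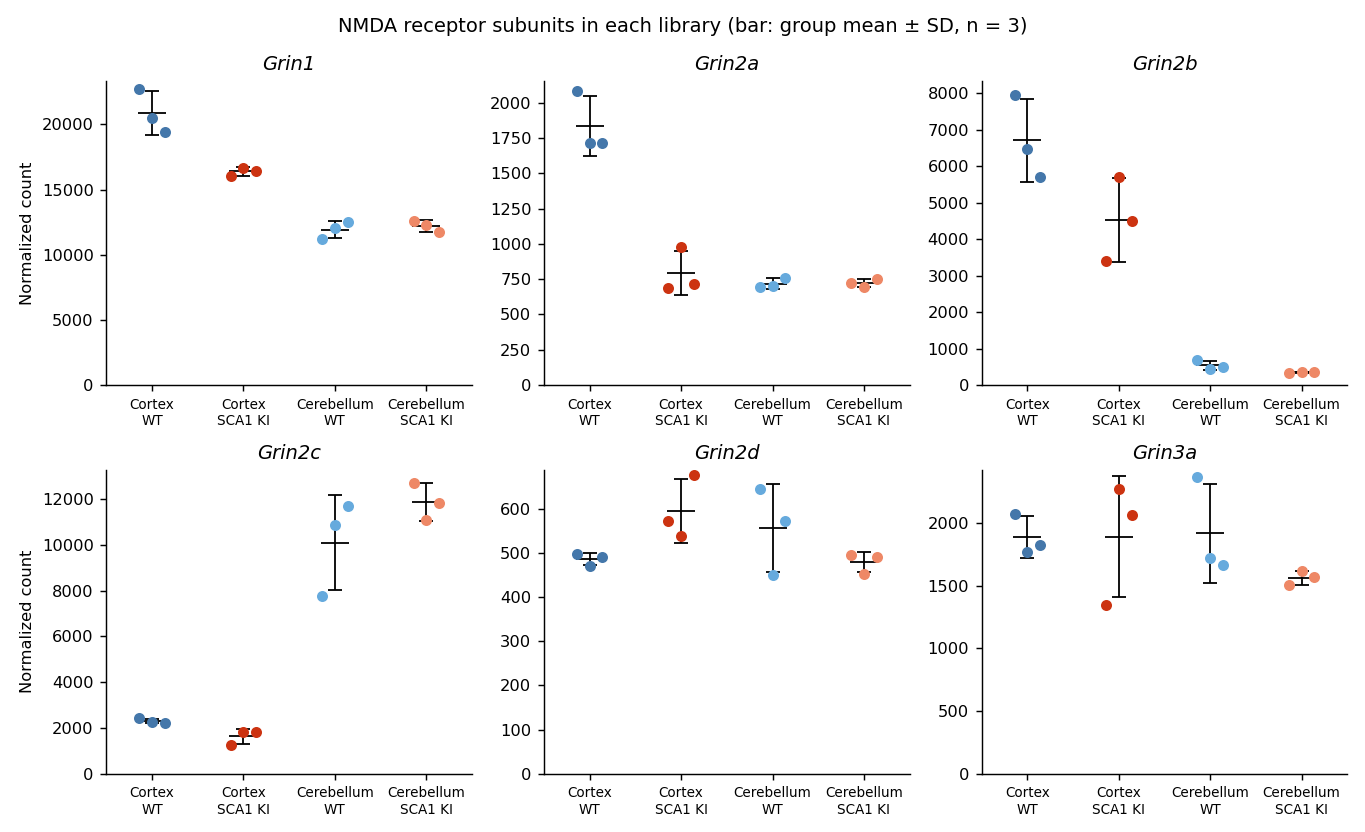
Normalized counts (vertical axis, linear, from 0) of the 6 subunits in each of the 12 libraries, with the mean and SD of each group (n = 3). Grin2a in SCA1 KI cortex (689 to 975) lies below WT cortex (1712 to 2082), while the cerebellum groups of Grin2a overlap.

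Grin1 encodes the subunit that every NMDA receptor needs. It measured 22746, 20520 and 19433 normalized counts in WT cortex libraries B, C and D and 16028, 16685 and 16456 in SCA1 KI libraries A, E and F. Each SCA1 KI library lay below each WT library, and the SCA1 KI libraries spread less (SD 333) than the WT libraries (SD 1689). The LFC was -0.35 ± 0.065 SE, and the mean level fell by 21.6% (95% interval of the LFC -0.49 to -0.21, limma adjusted p = 0.00282). Without WT library B the LFC was -0.29 and the call was kept (limma adjusted p = 0.0110).

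Grin2a, which encodes the GluN2 subunit that accumulates with maturation in the forebrain, measured 2082, 1718 and 1712 normalized counts in WT libraries B, C and D. It measured 689, 975 and 718 in SCA1 KI libraries A, E and F. The groups were far apart, and the highest SCA1 KI library lay well below the lowest WT library. The LFC was -1.22 ± 0.12, and the mean level fell by 56.8% (95% interval -1.48 to -0.96, limma adjusted p = 3.28e-05). Ordered by p, Grin2a stood at rank 90 of the 15367 tested genes. In SCA1 KI cortex its level came close to that in WT cerebellum, where it measured 697 to 761.

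Grin2b, which encodes the GluN2 subunit with slow deactivation and a long intracellular tail that binds CaMKII, measured 7956, 6462 and 5705 normalized counts in WT cortex and 3401, 5702 and 4502 in SCA1 KI libraries A, E and F. The groups did not overlap, but SCA1 KI library E and WT library D were level. The LFC was -0.58 ± 0.18 (95% interval -0.98 to -0.18, limma adjusted p = 0.0469). The call was lost in 8 of the 12 fits that left out a library. It was also lost in the cortex fitted on its own (limma adjusted p = 0.0779). The LFC was -0.39 without library A (limma adjusted p = 0.164) and -0.45 without WT library B (adjusted p = 0.157).

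Grin2c measured 2419, 2272 and 2224 normalized counts in WT cortex and 1260, 1801 and 1843 in SCA1 KI libraries A, E and F. All SCA1 KI libraries were lower, library A by the most. The LFC was -0.52 ± 0.15 (95% interval -0.85 to -0.18, limma adjusted p = 0.0364). Without library A the LFC was -0.34 and the call was lost (limma adjusted p = 0.122). Without WT library B the LFC was -0.48 and the call was lost too (limma adjusted p = 0.0994). In the cortex Grin2c RNA is known mainly from astrocytes and some interneurons, and the summed astrocyte markers were lower in the same libraries, at 63697 to 72334 normalized counts in SCA1 KI and 84430 to 98633 in WT cortex, with 5 of 7 markers called lower. The part of these markers in the Grin2c difference was not tested.

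Grin2d differed from the other GluN2 genes in sign. It measured 498, 471 and 490 normalized counts in WT cortex and 572, 537 and 677 in SCA1 KI cortex, so that every SCA1 KI library lay above every WT library. The LFC of 0.29 ± 0.12 did not pass the test (95% interval 0.02 to 0.55, limma adjusted p = 0.138). It passed with the trend of each library on transcript length and GC content removed (LFC 0.49, limma adjusted p = 0.00996).

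Grin3a, which encodes a glycine-binding GluN3 subunit, measured 2075, 1766 and 1823 normalized counts in WT cortex and 1349, 2267 and 2060 in SCA1 KI libraries A, E and F. Library A was lowest of the 6 and library E highest, and the groups overlapped. The LFC was -0.03 ± 0.17 (limma adjusted p = 0.933), and its 95% interval of -0.40 to 0.34 left room for a change in either direction. Without library A it was 0.20 (adjusted p = 0.364).

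**Figure D2:**
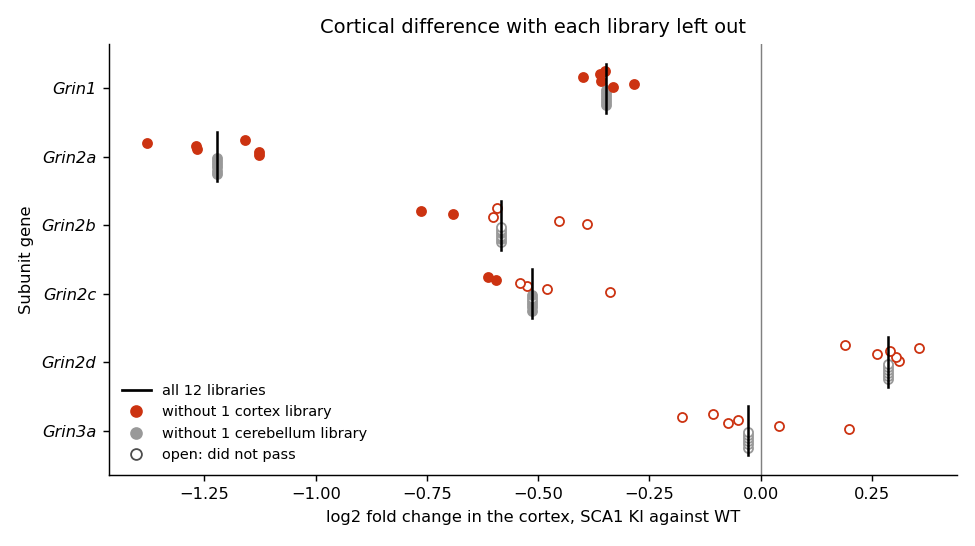
LFC of SCA1 KI against WT in the cortex (horizontal axis) for each subunit in the fit of all 12 libraries (black line) and in the 12 fits that each left out 1 library (points; open points did not pass the thresholds). Grin2a stays between -1.38 and -1.13 and Grin1 between -0.40 and -0.29, always called, whereas Grin2b and Grin2c have open points, at -0.39 and -0.34 without library A.

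Only Grin1 and Grin2a were thus called in the cortex in all 12 fits that left out a library. With the length and GC trend removed Grin1 had an LFC of -0.20 (limma adjusted p = 0.0315), under the limit of 0.25, and Grin2a one of -1.04 (adjusted p = 1.15e-05), still called.

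In the cortex, list sums of other markers moved with genotype as well. Cortical excitatory neuron markers summed to 96097 to 99284 normalized counts in WT and 67312 to 79535 in SCA1 KI (3 of 10 called lower), forebrain interneuron markers to 40240 to 42125 and 29191 to 38374 (3 of 9 lower), and hippocampus markers to 6308 to 7805 and 2968 to 4296 (3 of 7 tested lower). The hippocampus sum was carried by Wfs1 (3966 to 4642 in WT and 1679 to 2557 in SCA1 KI) and Bok (1248 to 1803 and 603 to 792). Cabp7 was lower too (195 to 370 and 73.9 to 151). Prox1 did not move (270 to 336 and 278 to 312), and the groups of Fibcd1, Spink8, Dsp and Iyd overlapped. Midbrain markers were higher in SCA1 KI cortex (774 to 1495 against 173 to 294, 2 of 7 tested called higher). Pou4f1 measured 2.21 to 6.83 in WT and 217 to 372 in SCA1 KI, and Tal1 115 to 125 and 497 to 991. The groups of Gata3 (0 to 2.28 in WT and 1.97 to 46.0 in SCA1 KI), Otx2, Th, Slc6a3, Sox14 and Barhl1 overlapped. Striatum markers summed to 9431 to 19203 in WT, highest in library B, and 5938 to 11313 in SCA1 KI. These sums overlapped, and 2 of 7 tested striatum markers were called lower. The hippocampus, where Grin2a and Grin2b are abundant, adjoins the cortex in dissection. The part of these marker differences in the lower subunit levels, or in the higher Grin2d values, was not tested.

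Within a library, the log2 ratio of Grin2a to Grin2b needs no normalization between libraries. It was -1.93, -1.91 and -1.74 in WT cortex libraries B, C and D and -2.30, -2.55 and -2.65 in SCA1 KI libraries A, E and F. The ratio was lower in every SCA1 KI library than in every WT library, with a difference of the means of -0.64. The exact 2-sided permutation test gave p = 0.1, the smallest p that 3 against 3 libraries allow.

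**Figure D3:**
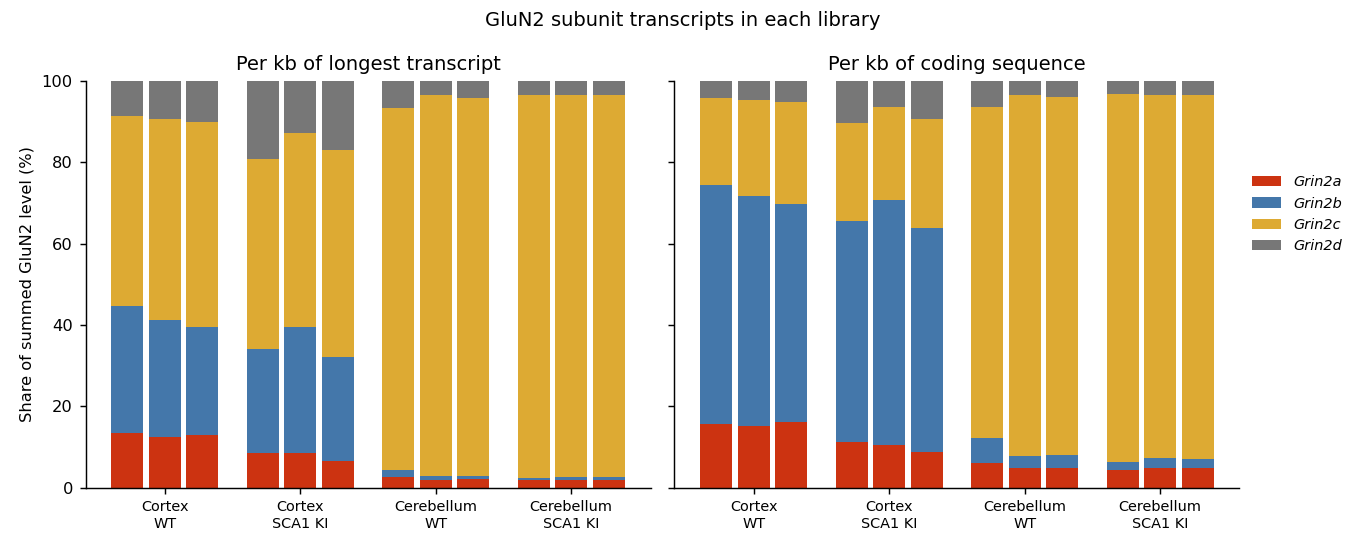
Share of each GluN2 gene in the summed GluN2 level per kb (vertical axis, percent) in each library, per kb of longest transcript (left) and of coding sequence (right). The Grin2a share is lower in SCA1 KI cortex than in WT cortex in both panels, while Grin2c or Grin2b leads the cortex depending on the length used.

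Of the summed GluN2 level per kb of longest transcript, Grin2a made up 13.0 ± 0.451% (SD, n = 3) in WT cortex and 7.95 ± 1.12% in SCA1 KI cortex, Grin2b 28.8 ± 2.42% and 27.3 ± 3.03%, Grin2c 48.9 ± 2.01% and 48.5 ± 2.27%, and Grin2d 9.31 ± 0.689% and 16.3 ± 3.17%. The Grin2a and Grin2d shares did not overlap between genotypes, whereas the Grin2b and Grin2c shares overlapped, and these shares were not tested. Per coding length the Grin2a share went from 15.7% to 10.2% and the Grin2d share from 4.63% to 8.63%. Grin2a stood above Grin2d per kb of longest transcript in WT cortex (117 to 142 against 86.6 to 91.7) and below it in SCA1 KI cortex (47.1 to 66.6 against 98.9 to 125). Per coding length the SCA1 KI values of both overlapped, at 157 to 222 for Grin2a and 135 to 170 for Grin2d, so the change of order depended on the length used. The summed GluN2 level per unit of Grin1 was 0.197 ± 0.00195 in WT cortex and 0.179 ± 0.0276 in SCA1 KI cortex, with overlapping ranges. Per coding length it was 0.367 and 0.314, and per exon union 0.419 and 0.378, again with overlapping ranges. Its size thus depended on the length used.

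In the cerebellum no subunit was called, 0 of 6 by limma against 5.36% of all tested genes called in either direction and 4.44% called lower. An unadjusted p under 0.05 was reached by 1 member, Grin2b, which was also the 1 member that DESeq2 called, and edgeR called 0. The median LFC of the members was -0.095, and that of all tested genes -0.0049. Groups did not overlap in 2 of 6 members, Grin2b and Grin3a, both lower in SCA1 KI, where 31.8% of all tested genes showed no overlap.

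Grin1 measured 11224, 12034 and 12517 normalized counts in WT cerebellum libraries 2, 4 and 6 and 12619, 12280 and 11733 in SCA1 KI libraries 1, 3 and 5. Grin2a measured 697, 699 and 761 in WT and 725, 694 and 750 in SCA1 KI. These groups overlapped, with an LFC of 0.03 ± 0.065 for Grin1 (95% interval -0.11 to 0.18, limma adjusted p = 0.859) and 0.01 ± 0.12 for Grin2a (95% interval -0.25 to 0.27, adjusted p = 0.985). The interval of Grin2a in the cerebellum did not reach that in the cortex.

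Grin2c, the GluN2 gene of mature granule cells, measured 7747, 10852 and 11675 normalized counts in WT libraries 2, 4 and 6 and 12703, 11075 and 11802 in SCA1 KI libraries 1, 3 and 5. WT library 2 lay below all others, and the remaining 5 overlapped. The LFC was 0.25 ± 0.15 (95% interval -0.08 to 0.59, limma adjusted p = 0.452), and 0.07 without library 2 (adjusted p = 0.933). The summed granule cell markers were also lowest in library 2, at 153284 against 207711 and 217303 in the other WT libraries and 214063 to 220866 in SCA1 KI, and its summed oligodendrocyte markers were highest, at 274432 against 156437 to 203967. The part of this library's composition in the Grin2c value was not tested.

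Grin2b, low in the cerebellum, measured 676, 443 and 496 normalized counts in WT libraries 2, 4 and 6 and 336, 369 and 356 in SCA1 KI libraries 1, 3 and 5. Every SCA1 KI library was lower than every WT library. The LFC was -0.58 ± 0.18 (95% interval -0.98 to -0.18) with a limma adjusted p of 0.0984. Over the alternatives the adjusted p ranged from 0.0217 to 0.359, and Grin2b was called with DESeq2 (LFC -0.61, adjusted p = 0.0226), with the length and GC trend removed (LFC -0.48, limma adjusted p = 0.0217) and without cortex library A (adjusted p = 0.0446). Without WT library 2, its highest library, the LFC was -0.41 (limma adjusted p = 0.359).

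Grin2d measured 645, 450 and 572 normalized counts in WT cerebellum and 495, 452 and 490 in SCA1 KI cerebellum, and the groups overlapped (LFC -0.20 ± 0.12, limma adjusted p = 0.466). Grin3a measured 2368, 1720 and 1662 in WT and 1505, 1617 and 1568 in SCA1 KI. Each SCA1 KI value of Grin3a was lower than each WT value, but the LFC of -0.28 ± 0.17 did not pass (limma adjusted p = 0.465). Library 2 again held the highest WT value of both genes, and without it the LFC was -0.08 for Grin2d (limma adjusted p = 0.907) and -0.11 for Grin3a (adjusted p = 0.909). Purkinje cell markers summed to 344663 to 430307 normalized counts in WT and 303190 to 340648 in SCA1 KI cerebellum (3 of 9 called lower), and midbrain markers to 1968 to 2147 and 1498 to 1697 (4 of 7 tested lower).

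Among the GluN2 genes of the cerebellum, Grin2c made up 91.9 ± 2.52% (SD, n = 3) of the summed level per kb of longest transcript in WT and 94.1 ± 0.263% in SCA1 KI, and 86.1% and 89.7% per coding length. WT library 2 held the lowest share per kb of longest transcript, 89.1%. WT libraries 4 and 6 held 93.7% and 93.1%, near the SCA1 KI range of 93.9% to 94.4%. Per coding length WT libraries 2, 4 and 6 held 81.5%, 88.7% and 88.0%, and SCA1 KI libraries 89.4% to 90.3%. These shares were not tested. The log2 ratio of Grin2a to Grin2c was -3.48, -3.96 and -3.94 in WT libraries 2, 4 and 6 and -4.13, -4.00 and -3.98 in SCA1 KI libraries 1, 3 and 5. The groups did not overlap, with a difference of -0.24 (exact 2-sided permutation test, p = 0.1, the smallest possible), but WT library 2 stood apart and without it the difference was -0.0858 (exact permutation p = 0.2, again the smallest possible).

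**Figure D4:**
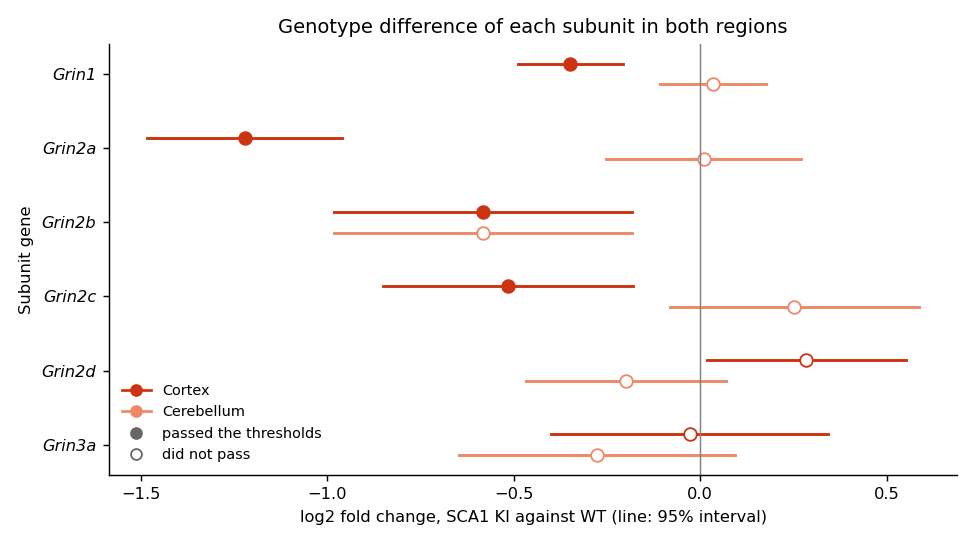
LFC of SCA1 KI against WT (horizontal axis) with 95% intervals from limma for each subunit in cortex and cerebellum; filled points passed the thresholds. Grin2a is at -1.22 in the cortex and 0.01 in the cerebellum, while Grin2b lies at -0.58 in both.

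The difference between the regions was tested as an interaction, LFC in the cortex minus LFC in the cerebellum. It passed an adjusted p of 0.05 in 3 of 6 members, where 8.15% of all tested genes passed. The difference was -1.23 ± 0.17 for Grin2a (95% interval -1.60 to -0.86, limma adjusted p = 0.00112) and -0.38 ± 0.092 for Grin1 (adjusted p = 0.0226), both lower in SCA1 KI in the cortex and near 0 in the cerebellum. For Grin2c it was -0.77 ± 0.22 (limma adjusted p = 0.0486), from values of opposite sign. The Grin2c difference was lost in 9 of the 12 fits that left out a library, among them those without cerebellum library 2 (-0.59, adjusted p = 0.0783) and cortex library A (-0.59, adjusted p = 0.0704), with edgeR (adjusted p = 0.0569) and without the filter on low values (adjusted p = 0.0512). That of Grin1 was lost without cerebellum library 1 (-0.36, limma adjusted p = 0.0729) or 3 (-0.38, adjusted p = 0.0607). For Grin2b the LFC was the same to 2 decimals in both regions, and the 95% interval of its difference ran from -0.57 to 0.57. The differences of Grin2d (0.48, limma adjusted p = 0.121) and Grin3a (0.25, adjusted p = 0.622) did not pass.

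The other genes of the pathway were followed in a list of 43, all of which were tested. In the cortex 11 were called lower and 0 higher, with 32 not called, where 10.8% of all tested genes were called lower, and the median LFC was -0.19 against -0.0028 over all tested genes. In the cerebellum 7 were called lower and 0 higher, with 36 not called, where 4.44% of all tested genes were called lower, and the median LFC was -0.048 against -0.0049. With the length and GC trend removed, 6 were called lower and 2 higher in the cerebellum. The lower calls lay among anchoring proteins, kinases and effectors, and none of the 9 genes that supply or remove the co-agonists glycine and D-serine was called in either region.

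Grin3b, the remaining subunit gene, was low in the cortex, with 4.05 to 8.32 normalized counts, and measured 41.9 to 58.4 in WT and 31.0 to 33.7 in SCA1 KI cerebellum. It was not called in the cortex (limma adjusted p = 0.561) or the cerebellum (LFC -0.55 ± 0.29, adjusted p = 0.363).

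Of 14 anchoring and trafficking genes, 4 were called lower in the cortex, against 10.8% of all tested genes. Dlg4, which encodes PSD-95, the scaffold that holds GluN2 tails at the synapse, ranged from 35743 to 38101 normalized counts in WT and from 24350 to 28127 in SCA1 KI (LFC -0.52 ± 0.061, limma adjusted p = 0.000123). Dlgap1, a scaffold bound to PSD-95, had an LFC of -0.65 (limma adjusted p = 0.000185), Dlg1, the scaffold SAP97, one of -0.32 (adjusted p = 0.0113, and 0.0539 without WT library C, where the call was lost), and Kif17, the kinesin that carries GluN2B vesicles along dendrites, one of -0.55 (adjusted p = 0.000373). In the cerebellum 2 of the 14 were called lower, against 4.44%. Neto1, an auxiliary protein of NMDA and kainate receptors, ranged from 177 to 372 in WT and from 108 to 123 in SCA1 KI (LFC -0.95 ± 0.21, limma adjusted p = 0.0198). Kif17 had an LFC of -0.28 (limma adjusted p = 0.0481) and lost its call in 14 of 22 alternatives. Neto1 lost its call with each region fitted on its own (limma adjusted p = 0.0864) and without SCA1 KI library 1 (0.0878), 3 (0.0583) or 5 (0.0542), and kept it without WT library 2 (LFC -0.60, adjusted p = 0.00226).

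Of 9 kinases and phosphatases that act on the receptor, 1 was called lower in each region, which in the cortex is about the 10.8% of all tested genes called lower (4.44% in the cerebellum). In the cortex this was Src, the tyrosine kinase that raises channel opening (LFC -0.45, limma adjusted p = 0.00469). In the cerebellum it was Ptk2b, the calcium-responsive tyrosine kinase upstream of Src, at 435 to 474 normalized counts in WT and 104 to 183 in SCA1 KI (LFC -1.75 ± 0.16, limma adjusted p = 3.80e-05). The regions differed for Ptk2b (interaction 1.44 ± 0.22, limma adjusted p = 0.00193) and for Src (-0.50, adjusted p = 0.0326).

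Of 10 effectors downstream of the receptor, 6 were called lower in the cortex and 4 in the cerebellum, against 10.8% and 4.44% of all tested genes. Camk2a, the calcium-dependent kinase that binds the GluN2B tail, ranged from 167504 to 188418 normalized counts in WT and from 78116 to 89382 in SCA1 KI cortex (LFC -1.12 ± 0.094, limma adjusted p = 1.40e-05), and from 5315 to 6982 and 2871 to 3232 in the cerebellum (LFC -1.0 ± 0.094, adjusted p = 6.15e-05). The interaction of -0.12 ± 0.13 did not pass (limma adjusted p = 0.678). Kalrn, a regulator of dendritic spines, was lower in both regions too (LFC -0.93 in the cortex and -0.54 in the cerebellum), and by more in the cortex (interaction limma adjusted p = 0.0315). In the cortex Nos1ap, an adaptor of neuronal nitric oxide synthase, had an LFC of -0.86 (limma adjusted p = 2.04e-05) and Ppp3ca, a catalytic subunit of calcineurin, one of -0.70 (adjusted p = 0.000158). Rasgrf2, a calcium-regulated Ras exchange factor, ranged from 10235 to 10868 normalized counts in WT and from 5430 to 6486 in SCA1 KI cortex (LFC -0.84, limma adjusted p = 0.0212), and lost its call without WT library C or SCA1 KI library E or F.

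Rasgrf2 and its relative Rasgrf1 were called lower in the cerebellum. There Rasgrf2 ranged from 943 to 2243 normalized counts in WT and from 225 to 281 in SCA1 KI (LFC -2.48 ± 0.22, limma adjusted p = 4.10e-05). Rasgrf1 had an LFC of -0.39 (limma adjusted p = 0.00776). The LFC of Rasgrf2 was -2.13 without WT library 2 (limma adjusted p = 3.57e-06), and its difference between regions was 1.64 ± 0.32 (adjusted p = 0.00698). Markers of other regions and cell types were lower in SCA1 KI cerebellum beside Ptk2b, Neto1 and Rasgrf2. Of the thalamus markers 4 of 7 tested were called lower, with Tcf7l2 at 1480 to 2404 normalized counts in WT and 210 to 249 in SCA1 KI, although the summed list was higher in SCA1 KI (25109 to 26239 against 18042 to 20810). The higher sum came from Calb2, at 10617 to 14150 in WT and 20744 to 22040 in SCA1 KI. Of the forebrain interneuron markers 3 of 9 were called lower (sums of 61498 to 61874 in WT and 51814 to 53559 in SCA1 KI). Sst measured 368 to 864 in WT and 41.2 to 72.6 in SCA1 KI, and Vip 81.5 to 130 and 0 to 2.53. The groups of Lhx6 and Slc32a1 overlapped. The highest members of this sum were Gad1 (26952 to 27445 in WT and 22287 to 23305 in SCA1 KI), Pvalb and Gad2, rather than Sst or Vip. Astrocyte markers summed to 179361 to 183189 in WT and 146684 to 148964 in SCA1 KI (2 of 7 called lower), and the part of these markers in the pathway differences was not tested.

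**Figure D5:**
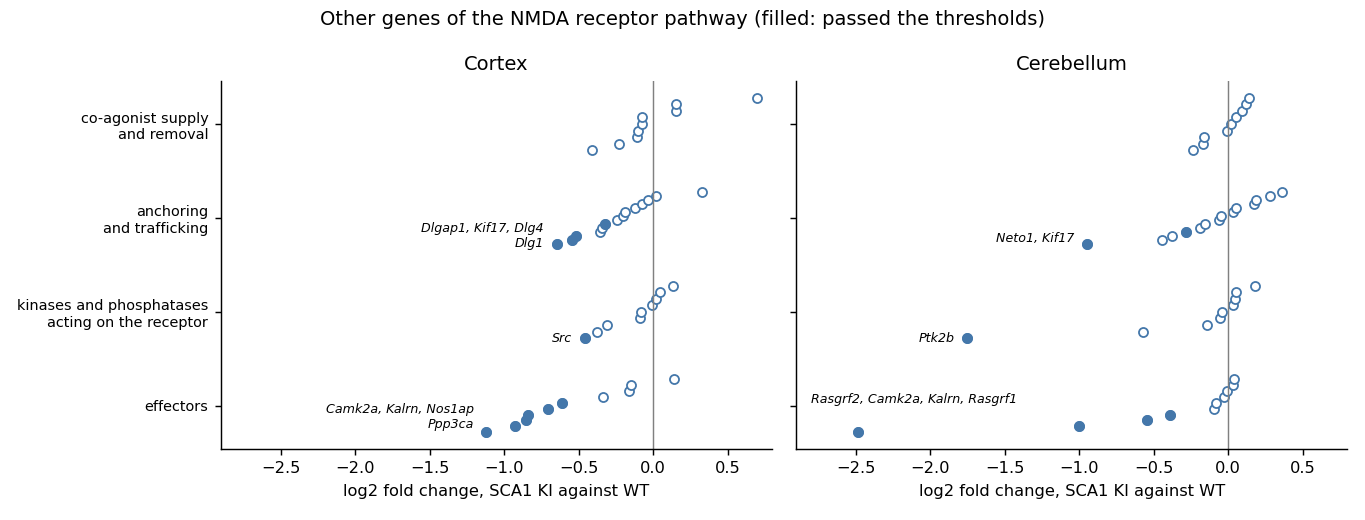
LFC of SCA1 KI against WT (horizontal axis) of 42 further genes of the pathway, grouped by role, in cortex and cerebellum; each point is a gene, filled points passed the thresholds, and up to 4 of them per group and region are named, by smallest p. All filled points lie below 0, and the co-agonist genes have none.

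Genes whose values followed each subunit most closely are given by Pearson's r of log2(normalized count + 1) over the 12 libraries. The points share their group of region and genotype, and these correlations are a description of 4 groups rather than of 12 independent samples. The Grin2a pattern, high in WT cortex alone, was most like that of Ptprd (r = 0.985), Znfx1 (0.982) and Myo5a (0.977), and 31 tested genes exceeded an r of 0.95. Subunits with a large difference between the regions had many close matches, with 1624 genes over 0.95 for Grin2b (led by Palm2, Robo3 and Cmip), 1384 for Grin2c (Hipk1, Rnf122 and Rnf152) and 441 for Grin1 (Ptk2, R3hdm1 and Fcho1). Grin2d had 1 such gene, Draxin (r = 0.951), followed by Tdrd5 (0.912) and Ache (0.880). Grin3a had 0, and came closest to Gnal (0.898), C4b (0.857) and Pdk3 (0.844). Among the members themselves, Grin2b and Grin1 varied together over the 12 libraries (r = 0.935), and Grin2b and Grin2c ran opposite (r = -0.948).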

How the data were processed

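Poly-adenylated RNA of 12 libraries was sequenced as paired ends of 75 bases. According to the methods of the study and the submitters' processing notes, the authors used STAR for alignment to mm10, featureCounts for the counts of each gene and DESeq2 for normalization. The deposited signal is 1 table of normalized counts with 15759 entries, of which 2 sharing a symbol were left out. Dividing a library's values by what 1 read was worth gave whole numbers throughout (100% within 0.02), and these recovered reads were used for edgeR and DESeq2. The columns give region, genotype and a letter or number, but no replicate of the labels. No library was left out or imputed.

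The 15367 genes whose mean reached 10 normalized counts entered a limma fit (version 3.58.1, R 4.3.3, moderated variances following a mean trend) of log2(normalized count + 1), with 4 group means over 12 libraries. Such LFCs understate changes of genes with low counts. Exact permutation tests were 2-sided. Alternatives were pseudocounts of 0.5 and 5, filters set to none or to a mean of 100, separate fits of the regions, centring on the median, TMM factors, edgeR 4.0.16, DESeq2 1.42.0, LFC limits of none and 1, removal of trends with transcript length and GC content within libraries (14631 genes), and leaving out each library. Coding length and exon union as the length of a gene were added after the data were seen. The fits were tested on simulated data. GENCODE vM21 matched 15000 of 15757 symbols.

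The members, the pathway and marker lists and the tests were chosen with earlier results of these data known. Genes named were the 6 members, up to 4 called pathway genes per list and region by smallest p, the 3 genes most correlated with each member, marker genes beside a result, and Atxn1. Some called genes are counted but not named here.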

Additional observations from a re-analysis of the deposited data

Results flagged for a closer look

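In 3 of the 6 subunits the genotype difference in the cortex departed from that in the cerebellum by the interaction test (LFC in the cortex minus LFC in the cerebellum, limma adjusted p under 0.05). The difference was -1.23 for Grin2a, from an LFC of -1.22 in the cortex and 0.01 in the cerebellum, and it passed in all 12 fits that left out a library (-1.39 to -1.14). It was -0.38 for Grin1, from -0.35 and 0.03, and was lost without cerebellum library 1 or 3. It was -0.77 for Grin2c, from -0.52 and 0.25, and was lost in 9 of those 12 fits. Region cannot be told apart from the data set that each region came from.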

How the results depend on the processing

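No paired analysis was possible because the columns carry no replicate numbers of the labels. The 4 subunits called in the cortex became 1 at an LFC limit of 1 and 2 to 4 in the fits that left out a library, with 2 without cortex library A, B or C or cerebellum library 5. Grin2c lost its call with the length and GC trend removed (LFC -0.33, limma adjusted p = 0.0783) and in 5 of 12 fits that left out a library, and Grin2b in 8 of 12. The 0 subunits called in the cerebellum became 1, Grin2b, with DESeq2, with the length and GC trend removed and without cortex library A (0 to 1 over all fits that left out a library). The 3 interaction calls became 1 without cerebellum library 1 or 3 (range 1 to 3). Grin2d joined the interaction calls with the length and GC trend removed (0.55, limma adjusted p = 0.0493) and without cerebellum library 4 (0.63, adjusted p = 0.0208). The 4 calls between WT regions stayed at 3 to 5 in every alternative run. At a limit of 1 the 11 pathway genes called in the cortex became 1 and the 7 in the cerebellum 3, with 9 to 13 and 5 to 8 in the fits that left out a library. In those fits the cortical Grin2a to Grin2b ratio differed by -0.738 to -0.566 and the cerebellar Grin2a to Grin2c ratio by -0.327 to -0.0858. Of all genes called, 69.2% were lower in the cortex and 82.9% in the cerebellum, against 56.0% and 52.2% with the length and GC trend removed and 77.1% and 73.7% with each region fitted on its own, and the cause was not tested. No called value changed sign; the LFC of Grin3a in the cortex, not called, ran from -0.18 to 0.20 without 1 library. The lowest value of a member rested on 363 reads, and each comparison on 3 libraries per group.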
